A study of Mus musculus with 9 samples.

Results

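The 6 Iroquois homeobox genes (Irx1, Irx2, Irx3, Irx4, Irx5 and Irx6) and the 3 Hey genes (Hey1, Hey2 and Heyl) were followed in ventricle RNA from mice at postnatal day 7. They were chosen by name from a table of 38293 genes, and all 9 were in it. The table holds raw read counts from 5 libraries of Arid1a f/f mice (control), which have the floxed allele and no Cre, and 4 libraries of aMHC-Cre;Arid1a f/f mice (cKO), in which the cardiomyocyte promoter aMHC drives Cre. Both groups therefore carry the floxed Arid1a allele, and other cells of the ventricle, which do not use that promoter, were sequenced with the cardiomyocytes. Arid1a encodes a DNA-binding member of the SWI/SNF remodelers, and the comparison asks how its loss from cardiomyocytes changes expression in the neonatal ventricle. In such bulk RNA, fewer cells of a type and less RNA per cell cannot be told apart. No group carried Cre without the floxed allele, so Arid1a loss and the Cre transgene itself cannot be told apart either.

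Iroquois proteins are transcription factors of the TALE homeobox class, named for a fly mutant that lacks lateral bristles. In the mouse they lie in a pair of clusters, Irx1, Irx2 and Irx4 on chromosome 13 and Irx3, Irx5 and Irx6 on chromosome 8. Irx4 is known as a ventricle-restricted factor, Irx5 for repressing the potassium channel gene Kcnd2 across the ventricular wall, and Irx3 for its part in the fast conduction system. Hey proteins are repressors of the hairy family, induced by the Notch pathway through the DNA-binding protein Rbpj. Hey2 is a factor of the compact ventricular wall, Hey1 is best known from atrium and endothelium, and Heyl from vascular mural cells.

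The Iroquois genes are near copies of each other where they encode the homeodomain, which bears on how far single reads can be assigned. The 75-base stretch of each coding sequence most like the one of Irx5 is shown because Irx5 is the member whose level rose, and capitals mark bases that differ from Irx5.
Irx5: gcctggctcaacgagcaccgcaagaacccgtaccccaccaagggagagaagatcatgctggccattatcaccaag
Irx1: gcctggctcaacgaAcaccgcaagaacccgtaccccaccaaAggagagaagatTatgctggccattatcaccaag
Irx2: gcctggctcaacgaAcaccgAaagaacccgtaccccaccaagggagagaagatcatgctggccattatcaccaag
Irx3: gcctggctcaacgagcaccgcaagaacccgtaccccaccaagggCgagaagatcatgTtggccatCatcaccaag
Irx4: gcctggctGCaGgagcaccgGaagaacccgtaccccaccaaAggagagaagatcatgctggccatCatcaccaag
Irx6: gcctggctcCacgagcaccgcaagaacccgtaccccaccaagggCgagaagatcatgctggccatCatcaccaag
The Irx5 stretch lies at chr8:92359675-92359749 on the plus strand of GRCm38, the assembly also called mm10, and each of the others also lies within 1 exon of its gene. They are chr13:71960058-71960132 (minus strand) for Irx1, chr13:72630712-72630786 (plus) for Irx2, chr8:91800562-91800636 (minus) for Irx3, chr13:73267571-73267645 (plus) for Irx4 and chr8:92677284-92677358 (plus) for Irx6. The stretches of Irx1, Irx3 and Irx6 differed from Irx5 at 3 bases, that of Irx2 at 2 and that of Irx4 at 6. Among 18 pairs of members within a family, 1 pair shared an identical stretch as long as a 75-base read. That pair was Irx3 and Irx6, with 88 identical bases, while Irx2 and Irx5 shared up to 65 bases and Irx3 and Irx5 up to 50. Reads from the 88 bases common to Irx3 and Irx6 cannot be assigned to 1 of them, so the Irx6 counts given further on are uncertain.

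The Hey genes are less alike, as the 75 coding bases of Heyl closest to any stretch of a relative show. That relative is Hey1, and for Hey2 the stretch most like these bases is given. Capitals mark the bases that differ from Heyl.
Heyl: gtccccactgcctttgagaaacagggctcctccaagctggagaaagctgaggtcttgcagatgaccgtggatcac
Hey1: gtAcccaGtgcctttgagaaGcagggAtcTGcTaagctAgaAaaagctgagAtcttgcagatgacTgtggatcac
Hey2: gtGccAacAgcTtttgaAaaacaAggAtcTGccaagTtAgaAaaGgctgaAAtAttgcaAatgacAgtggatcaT
Each of these stretches spans an exon junction, the Heyl one from chr4:123241423 to 123243074. Hey1 differed from Heyl at 11 of these bases and Hey2 at 19. No pair of Hey genes shared more than 17 identical bases in a row. The counts of the Hey genes are thus separable by single reads.

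Of the 9 members, 4 (Hey2, Irx2, Irx3 and Irx4) had an entry in the RefSeq promoter table for GRCm38.p6, which covers 250 bases before and 50 bases after each start. The sequence GTGGGAA, the core bound by Rbpj, was searched on both strands, where it does not overlap the other motifs searched. It was present in 6.38% of 32851 promoters. The Hey2 promoter held 2 matches and the Irx2 promoter 1, while the Irx3 and Irx4 promoters held none. The Hey2 stretch at chr10:30842774-30843033 on the minus strand, to 10 bases past the start, is shown with both matches in capitals because Hey2 is a known Notch target.
Hey2: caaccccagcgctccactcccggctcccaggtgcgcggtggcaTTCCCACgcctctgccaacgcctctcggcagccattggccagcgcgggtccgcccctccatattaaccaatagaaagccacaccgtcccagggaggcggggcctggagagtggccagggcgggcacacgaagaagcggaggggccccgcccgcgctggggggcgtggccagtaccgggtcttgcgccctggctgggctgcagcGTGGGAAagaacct
The first match is on the opposite strand, 207 bases before the start, and the second begins 4 bases before it. The motifs CACGTG of Hey proteins and ACANNTGT of Iroquois proteins, in 7.15% and 7.38% of promoters, had no match in these 4 windows. A match describes letters only, and no binding was measured here.

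Total counts ran from 31011055 to 40073801 per library, and Spearman correlations within groups from 0.982 to 0.995. Arid1a was 139.8 ± 8.84 CPM (SD, n = 5) in control and 106.4 ± 5.44 CPM (n = 4) in cKO libraries, a log2 fold change of -0.39 ± 0.06 (SE; edgeR adjusted p = 0.0013), with no overlap between the groups. CPM are counts in 1e6 of the TMM-scaled library total. The libraries also fell into 2 sets by Rps3a3, a copy of a ribosomal protein gene, whose level was under 1 CPM in controls 1 and 2 and cKO 1 to 3 and from 99.7 to 112.3 CPM in controls 3 to 5 and cKO 4. The related gene Rps3a1 went the other way, from 253.1 to 275.6 CPM in the first set and from 70.8 to 75.7 CPM in the second. Whether reads pass between these copies was not tested. Genotype differences are therefore also given for each set, named Rps3a3-low and Rps3a3-high, and the second holds a single cKO library. All 6 cardiomyocyte markers were detected and none passed an adjusted p under 0.05 in edgeR, beside 16.3% of all genes, so 0 of 6 is near the background. At an unadjusted p under 0.05 there were 2.

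Irx5 rose in the cKO ventricles and Heyl rose by a smaller amount, while Irx1, Irx2, Irx3, Irx4, Hey1 and Hey2 did not pass the test. Of the 8 members with enough counts to test, 1 was called, which means an adjusted p under 0.05 in edgeR and a fold change over 1.5, beside 6.72% of all 15318 genes tested. At the adjusted p alone 2 members passed, Irx5 and Heyl, beside 16.3% of all genes in either direction and 8.25% upward. The libraries of the groups did not overlap for these 2 members, both higher in cKO, beside 16.7% of all genes (8.16% higher and 8.58% lower). The median log2 fold change of the 8 members was 0.04, beside 0.01 over all genes. With 8 members, 1 called is a share close to the background, so the result concerns single genes and not the families.

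**Figure D1:**
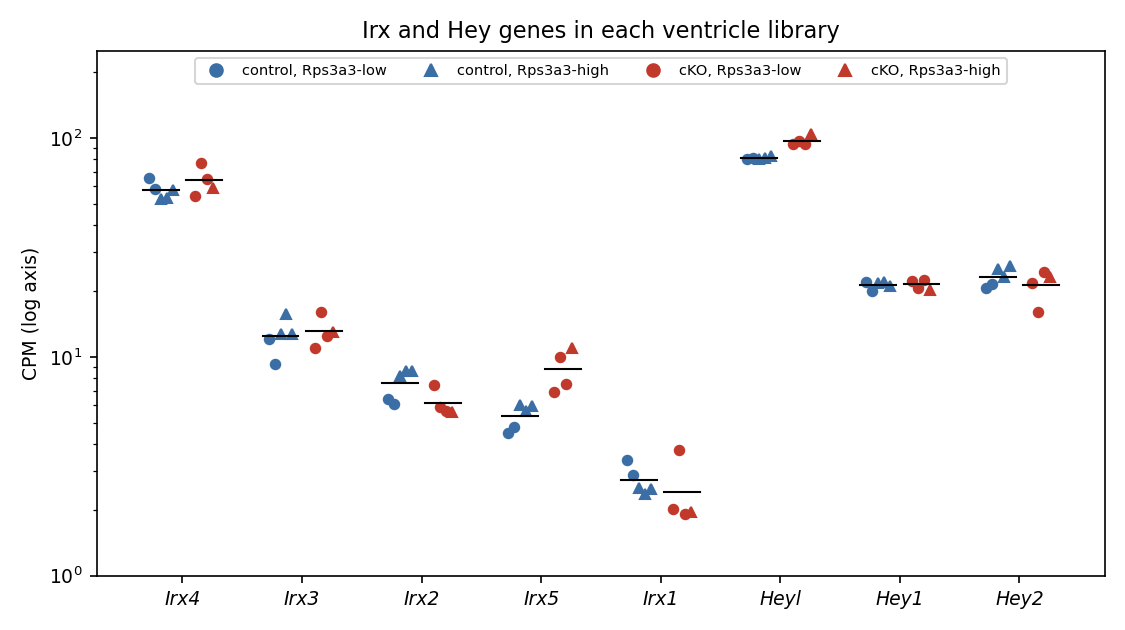
CPM (log axis) of the 8 tested Irx and Hey genes in each library, with controls in blue, cKO in red, circles for Rps3a3-low and triangles for Rps3a3-high libraries, and bars at the group means. The red points of Irx5 and Heyl all lie above their blue points, while the groups of the other 6 genes overlap, and Irx6 is left out because 3 controls have a count of 0.

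Irx4, the ventricular member of the chromosome 13 cluster (ENSMUSG00000021604, chr13:73260479-73269608, plus strand), was by far the most abundant Iroquois gene. Its level was 65.8, 58.3, 52.7, 53.4 and 58.0 CPM in controls 1 to 5 and 54.4, 77.1, 64.9 and 59.2 CPM in cKO 1 to 4. The groups overlapped, with cKO 2 the highest library of all. Its log2 fold change was 0.15 ± 0.10 (SE; edgeR adjusted p = 0.362), and without cKO 2 it was 0.046. Irx4 made up 69.6% ± 4.03 of the summed Iroquois level per kb of exon in controls (SD, n = 5) and 70.1% ± 1.96 in cKO (n = 4).

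Irx2 (ENSMUSG00000001504, chr13:72628820-72634198, plus strand), a cluster neighbor of Irx4 with a broad developmental role, was measured at 6.44, 6.08, 8.17, 8.62 and 8.60 CPM in controls and at 7.43, 5.89, 5.65 and 5.57 CPM in cKO. The 2 Rps3a3-low controls lay at the level of the cKO libraries, and the 3 Rps3a3-high controls above all of them. The log2 fold change was -0.31 ± 0.15 (SE; edgeR adjusted p = 0.186). The log2 difference between the group means was 0.00 in Rps3a3-low libraries and -0.56 in Rps3a3-high ones, so the lower mean in cKO was present in the second set only, which has 1 cKO library. Whether the sets differ in this difference was not tested.

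Irx1 (ENSMUSG00000060969, chr13:71957921-71963723, minus strand), the third gene of the cluster, was low. It was at 3.37, 2.90, 2.52, 2.36 and 2.49 CPM in controls and at 2.02, 3.74, 1.91 and 1.96 CPM in cKO. Of the cKO libraries 3 lay below every control and cKO 2 lay above every control. Irx1 had a log2 fold change of -0.18 ± 0.23 (SE; edgeR adjusted p = 0.644), and without cKO 2 it was -0.47, which did not pass either (edgeR adjusted p = 0.128).

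Irx5 (ENSMUSG00000031737, chr8:92357625-92376286, plus strand), the repressor of Kcnd2 in the ventricular wall, was measured at 4.48, 4.78, 6.04, 5.63 and 5.95 CPM in controls and at 6.87, 10.02, 7.47 and 10.97 CPM in cKO. These are 149 to 218 counts per control library and 221 to 453 per cKO library. Every cKO library lay above every control, and cKO 2 and cKO 4 were the highest. The mean was 5.38 ± 0.705 CPM in control (SD, n = 5) and 8.83 ± 1.97 CPM in cKO (n = 4), a 1.64-fold rise with a log2 fold change of 0.72 ± 0.16 (SE; edgeR adjusted p = 0.0094). The log2 difference of the group means was 0.73 in Rps3a3-low libraries and 0.85 in Rps3a3-high ones. With the 5 Rps3a3-low libraries alone the log2 fold change was 0.81 and no longer passed (edgeR adjusted p = 0.0685). With each library left out in turn it stayed between 0.60 and 0.82 and was called in 9 of 9 fits.

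Irx3 (ENSMUSG00000031734, chr8:91798525-91802067, minus strand), the conduction-system member of the same cluster, did not follow Irx5. It was at 12.04, 9.30, 12.7, 15.6 and 12.8 CPM in controls and at 11.01, 15.9, 12.4 and 13.001 CPM in cKO. All but 1 of the cKO values lay within the range of the controls. The log2 fold change was 0.07 ± 0.15 (SE; edgeR adjusted p = 0.796), and its sign turned when control 2 or cKO 2 was left out. An antisense gene, Irx3os, overlaps Irx3 and had a log2 fold change of 0.13 ± 0.25 (edgeR adjusted p = 0.772). The strand setting of the counting is not given in the sources used here, so reads of the overlapping pair may not be separated.

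Irx6 (ENSMUSG00000031738, chr8:92674288-92680956, plus strand), the third gene of the chromosome 8 cluster, was hardly detected. It had 0, 0, 0, 6 and 3 counts in controls and 7, 1, 10 and 2 counts in cKO. These counts were below the filter for testing, so no fold change is given.

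**Figure D2:**
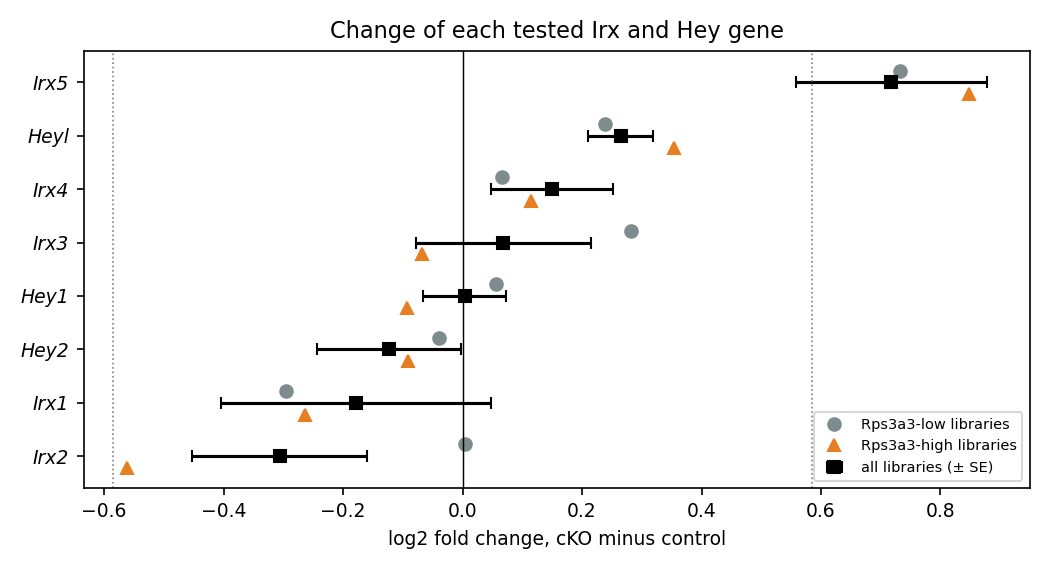
Log2 fold change (cKO minus control, x axis) of the 8 tested genes, with squares and SE bars for all 9 libraries, gray circles for Rps3a3-low and orange triangles for Rps3a3-high libraries, and dotted lines at a fold of 1.5. Only the Irx5 estimate, at 0.72, lies beyond a dotted line, and the set values of Irx2 (0.00 and -0.56) and Irx3 (0.28 and -0.07) lie apart.

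Heyl (ENSMUSG00000032744, chr4:123233556-123249875, plus strand), the mural cell member, was the most abundant Hey gene. It was at 79.98, 80.5, 80.2, 80.6 and 82.7 CPM in controls and at 93.4, 96.9, 93.9 and 103.8 CPM in cKO. The controls were tightly grouped and every cKO library lay above them. The mean rose from 80.8 ± 1.10 CPM (SD, n = 5) to 97.0 ± 4.77 CPM (n = 4), a 1.20-fold rise with a log2 fold change of 0.26 ± 0.05 (SE; edgeR adjusted p = 0.0057), which is under the fold threshold. The log2 difference of the group means was 0.24 in Rps3a3-low libraries and 0.35 in Rps3a3-high ones. With the Rps3a3-low libraries alone the adjusted p was 0.134 (edgeR, log2 fold change 0.24).

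Hey1 (ENSMUSG00000040289, chr3:8663359-8667256, minus strand), the endothelial and atrial member, had the log2 fold change nearest to 0. It lay at 21.9, 20.04, 21.8, 21.9 and 21.1 CPM in controls and at 22.2, 20.7, 22.5 and 20.2 CPM in cKO. The log2 fold change was 0.00 ± 0.07 (SE; edgeR adjusted p = 0.981), and both groups had a mean of 21.4 CPM.

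Hey2 (ENSMUSG00000019789, chr10:30832359-30842801, minus strand), the compact wall factor, was at 20.6, 21.4, 25.1, 23.2 and 25.9 CPM in controls and at 21.7, 16.1, 24.5 and 23.2 CPM in cKO. The groups overlapped, and cKO 2 was the lowest library. Hey2 had a log2 fold change of -0.12 ± 0.12 (SE; edgeR adjusted p = 0.539), which was -0.0081 without cKO 2 and -0.19 without cKO 3.

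Because a read count grows with transcript length, levels were compared between members as CPM per kb of exon. In controls the order was Irx4 at 22.1, Heyl at 15.8, Hey1 at 6.54, Hey2 at 5.06, Irx3 at 4.52, Irx2 at 2.31, Irx5 at 1.72, Irx1 at 1.04 and Irx6 at 0.017 CPM per kb. Neighbors whose ranges over libraries overlapped were Hey2 with Irx3 and Irx2 with Irx5. In cKO the order was Irx4 at 24.5, Heyl at 19.0, Hey1 at 6.56, Irx3 at 4.74, Hey2 at 4.65, Irx5 at 2.83, Irx2 at 1.87, Irx1 at 0.919 and Irx6 at 0.043 CPM per kb. There the ranges of Irx3 and Hey2, of Hey2 and Irx5, and of Irx5 and Irx2 overlapped. Irx5 exceeded Irx2 per kb in 0 of 5 control and in 3 of 4 cKO libraries. The share of Irx5 in the summed Iroquois level per kb was 5.44% ± 0.850 in controls (SD, n = 5) and 8.11% ± 1.62 in cKO (n = 4), and that of Irx2 was 7.30% ± 1.27 and 5.48% ± 1.41.

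**Figure D3:**
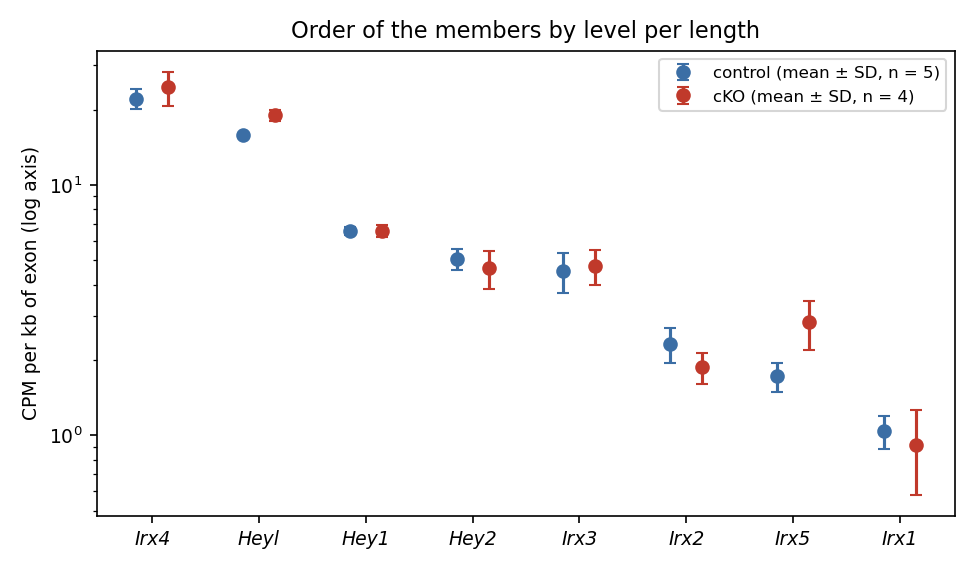
Mean level per kb of exon (log axis, ± SD) of 8 members in 5 control (blue) and 4 cKO (red) libraries, ordered by the control level. Irx5 moves from below Irx2 in controls (1.72 against 2.31 CPM per kb) to above it in cKO (2.83 against 1.87), while Irx4 and Heyl lead in both groups.

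The ratio of related genes within each library was compared for 7 pairs by an exact permutation test over libraries (two-sided, smallest possible p 0.00794). The log2 ratio of Irx3 to Irx5 was 1.14 ± 0.22 in control (SD, n = 5) and 0.55 ± 0.21 in cKO (n = 4), a difference of -0.58 (exact p = 0.00794, adjusted over the 7 pairs 0.0278). The groups did not overlap, and the difference was -0.45 in Rps3a3-low libraries and -0.92 in Rps3a3-high ones. The log2 ratio of Hey1 to Heyl differed by -0.26 (exact p = 0.00794, adjusted 0.0278) without overlap, and that of Hey2 to Heyl by -0.39 (exact p = 0.0159, adjusted 0.037). These 2 ratios share Heyl and so are not separate results. The pairs Irx1 with Irx4 (-0.32, exact p = 0.0317, adjusted 0.0556), Irx2 with Irx4 (-0.42, adjusted exact p = 0.144), Hey1 with Hey2 (0.13, adjusted exact p = 0.407) and Irx1 with Irx2 (0.10, adjusted exact p = 0.762) did not pass after adjustment. With each library left out, the ratios of Irx3 to Irx5 and of Hey1 to Heyl kept an adjusted exact p under 0.05 in 2 of 9 runs (without cKO 2 or cKO 3) and Hey2 to Heyl in 1 (without cKO 3), with adjusted values up to 0.10, 0.10 and 0.133. Without a control, 4 libraries remain in each group and the exact p cannot go below 0.0286. The ratios of Irx3 to Irx5 and of Hey1 to Heyl had that smallest value in every such run. Irx1 to Irx4 passed without cKO 2 (-0.43, adjusted exact p = 0.0417). With labels permuted only within the Rps3a3 sets, where p cannot go below 0.025, none of the 7 adjusted values passed, and the lowest was 0.0875 by that exact test. Irx6 was too low for ratios.

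**Figure D4:**
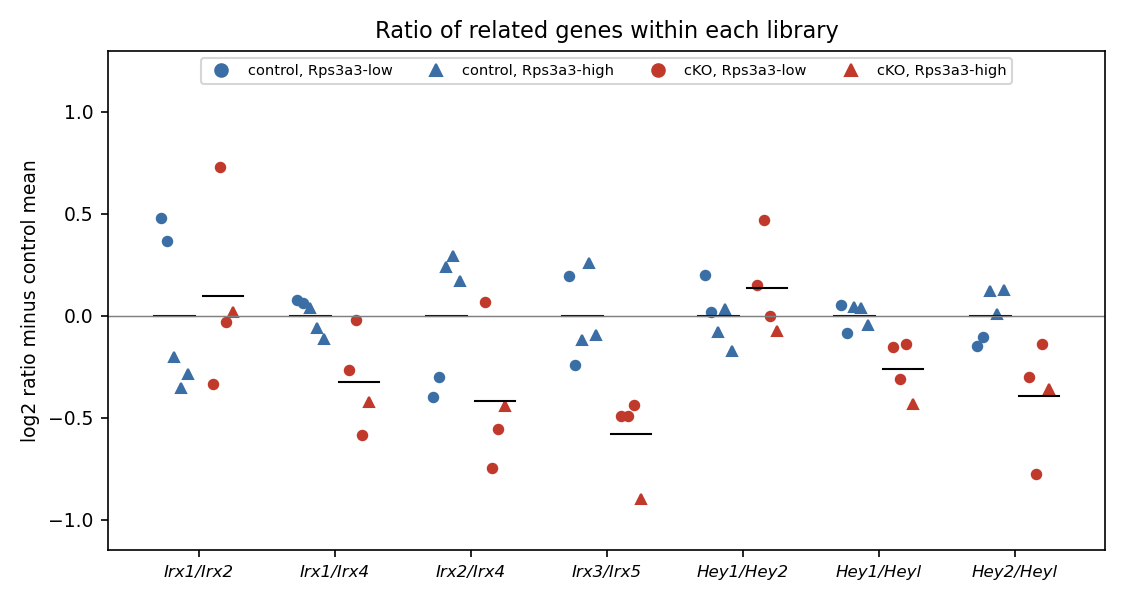
Log2 ratio of 7 pairs of related genes in each library, less the control mean of that pair, with symbols as in the plot of CPM by library and bars at group means. The cKO points of Irx3/Irx5 and Hey1/Heyl all lie below the control points, with mean differences of -0.58 and -0.26, and the other pairs overlap.

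Around the members, 78 annotated genes in the table start or end within 500 kb, of which 36 could be tested and 1 was called, beside 6.72% of all genes. That gene was Tpd52l1, 489575 bases from Hey2, at 2.92 ± 0.355 CPM in control (SD, n = 5) and 5.21 ± 0.623 CPM in cKO (n = 4), a log2 fold change of 0.84 ± 0.14 (SE; edgeR adjusted p = 0.002). Fto, next to Irx3 and known to hold enhancers that act on Irx3 and Irx5, passed the adjusted p below the fold threshold, with a log2 fold change of -0.20 ± 0.06 (edgeR adjusted p = 0.0324). The Fto result passed in 8 of 18 alternatives and was lost without control 1, 3, 4 or 5 or cKO 2 or 4 (adjusted p up to 0.101), with the replicate block (edgeR adjusted p = 0.0751) and in Rps3a3-low libraries alone (edgeR adjusted p = 0.295). The noncoding gene Crnde, 1505 bases from Irx5, had a log2 fold change of 0.21 ± 0.19 (edgeR adjusted p = 0.50). The noncoding gene Gm21817, 18375 bases from Irx5, was at 0.229 CPM in control and 0.470 CPM in cKO (1.03 ± 0.34, edgeR adjusted p = 0.0614).

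Among 10789 genes with a mean of at least 5 CPM, the 3 whose centered log2 profile over the 9 libraries was most like that of Irx5 were Bend4, Cenpe and Bace2. Their root mean square differences from Irx5 were 0.104, 0.106 and 0.107 on the log2 scale, beside a median of 0.416 over all these genes. Their log2 fold changes were 0.59, 0.67 and 0.63. Since all were ranked on the same libraries, this is a description.

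The Notch ligands and receptors act upstream of the Hey genes. None of the 4 tested ligand genes (Dll1, Dll4, Jag1 and Jag2) and 4 receptor genes (Notch1 to Notch4) passed an adjusted p under 0.05 in edgeR, beside 16.3% of all genes, so that 0 of 8 is near the background. At an unadjusted p under 0.05 there was 1, Notch3, the mural receptor, with a log2 fold change of 0.27 ± 0.11 (edgeR adjusted p = 0.104), and DESeq2 called none of the 8. Notch3 was at 102.2 ± 10.1 CPM in control (SD, n = 5) and 123.6 ± 20.5 CPM in cKO (n = 4), and the groups overlapped. With each library left out its log2 fold change ran from 0.16 to 0.34, and it passed in 1 of 9 fits (edgeR adjusted p = 0.0447). A list of 21 genes held those for ligand and receptor processing and the nuclear complex, and also Dlk1, a ligand-like inhibitor of Notch. Of these 21, 1 was called, beside 6.72% of all genes, and it was not a processing or nuclear gene. The called gene was Dlk1, at 13.1, 11.6, 13.4, 4.28 and 16.4 CPM in controls and 6.72, 3.63, 4.11 and 3.22 CPM in cKO. The groups overlapped through control 4, the log2 fold change was -1.42 ± 0.36 (edgeR adjusted p = 0.0265), and the call was lost in 5 of 9 fits that left out a library (control 1, control 3, cKO 2, cKO 3 or cKO 4, adjusted p from 0.0519 to 0.097) and without a filter on low counts (0.0645).

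Of 7 tested relatives and targets of the Notch pathway other than the Hey genes, 0 were called in edgeR and 3 passed the adjusted p alone, beside 16.3% of all genes, 4 having an unadjusted p under 0.05. DESeq2 called none of them. Hes1, the general Notch effector, fell from 34.0 ± 1.79 to 26.9 ± 1.09 CPM (log2 fold change -0.34 ± 0.06, edgeR adjusted p = 0.0039). Hes6, an inhibitor of Hes1, rose from 17.6 ± 2.66 to 24.7 ± 2.28 CPM (0.48 ± 0.11, edgeR adjusted p = 0.0123), and in Rps3a3-low libraries alone the value was 0.30 and did not pass. Nrarp, a feedback inhibitor of Notch, rose from 32.2 ± 2.35 to 38.3 ± 3.24 CPM (0.25 ± 0.08, edgeR adjusted p = 0.046). The Nrarp result passed in only 6 of 18 alternatives and was lost in 7 of 9 fits that left out a library (all but control 1 and cKO 1, adjusted p up to 0.132), with the replicate block (edgeR adjusted p = 0.127) and in Rps3a3-low libraries alone (0.20, edgeR adjusted p = 0.426).

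Cell-type markers were set beside Heyl and Irx5. The summed level of 8 mural markers was 2001 to 2100 CPM in controls and 1936 to 2295 CPM in cKO, which overlapped. Of these 8, 1 was called lower, beside 2.72% of all genes. It was Vtn, which fell by 0.78 on the log2 scale (edgeR adjusted p = 0.0049). The summed level of 6 arterial endothelial markers was 178.5 to 213.5 CPM in controls and 235.4 to 282.5 CPM in cKO, without overlap. Of these, 2 passed the adjusted p upward and 1 downward, beside 8.25% and 8.03% of all genes, namely Unc5b at 0.56 and Fbln5 at 0.52 against Sox17 at -0.46. Unc5b did not pass with the replicate block (edgeR adjusted p = 0.0751) or in Rps3a3-low libraries alone (0.46, edgeR adjusted p = 0.262). The 4 endocardial markers summed to 57.1 to 70.4 CPM in controls and 75.2 to 92.1 CPM in cKO, again without overlap, beside 8.16% of all single genes without overlap and higher, and Plvap (1.01) and Cytl1 (0.75) were called higher, beside 4.01% of all genes. The Plvap call was lost with the replicate block (edgeR adjusted p = 0.113) and in Rps3a3-low libraries alone (0.74, edgeR adjusted p = 0.265). The summed level of the 8 pan-endothelial markers overlapped between groups, with 1 lower and 0 higher at the adjusted p, beside 8.03% and 8.25% of all genes. Of 6 fibroblast markers 2 passed the adjusted p, both higher, beside 8.25% of all genes. Of 5 epicardial markers 1 was called, Tbx18, an epicardial and mural transcription factor, at 21.4 ± 2.60 CPM in control and 32.2 ± 6.39 CPM in cKO (log2 fold change 0.59 ± 0.13, edgeR adjusted p = 0.0097), beside 4.01% of all genes called higher, and 1 other passed the adjusted p downward, beside 8.03%. Tbx18 lies just past the fold threshold and fell below it without control 1, control 2, cKO 1 or cKO 4 (0.48 to 0.55) and without a filter on low counts (0.58), with the adjusted p still under 0.05 in these fits. None of 6 macrophage and 4 Schwann cell markers had an unadjusted p under 0.05 in edgeR. No list had its markers at 0, and the part of these cells in the rise of Heyl or Irx5 was not tested.

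The other TALE homeobox genes, cofactors of the same class as the Iroquois genes, included 0 of 12 called in edgeR, with 4 at an unadjusted p under 0.05 and 0 called by DESeq2. The adjusted p alone was passed by 2 of 12, beside 16.3% of all genes. Meis1, a Hox and Pbx partner known for cardiomyocyte cell cycle arrest, fell by 0.52 on the log2 scale (edgeR adjusted p = 0.0005), from 63.9 ± 4.74 to 44.6 ± 2.45 CPM. Meis3 rose from 6.90 ± 1.09 to 9.41 ± 0.398 CPM (log2 fold change 0.45 ± 0.12, edgeR adjusted p = 0.0281). The Meis3 result was lost in 8 of 18 alternatives, namely without control 3, 4 or 5 or cKO 2, 3 or 4 (adjusted p up to 0.071), with the replicate block (edgeR adjusted p = 0.0848) and in Rps3a3-low libraries alone, where the log2 fold change was 0.25 (edgeR adjusted p = 0.445).

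Partners and corepressors of Iroquois and Hey proteins were lower where they passed the test. The list was chosen with earlier results of these data known, so its counts are a description. Of 12 tested, 6 passed the adjusted p and all 6 were lower in cKO, beside 8.03% of all genes that were lower at that threshold. They were Vdr, Gata6, Tbx5, Tbx20, Hand2 and Smyd1, the last 5 below the fold threshold and named here after their values were seen, and Smyd1 was lost without cKO 2 or cKO 4 (edgeR adjusted p up to 0.0512), with the replicate block (edgeR adjusted p = 0.0775) and in Rps3a3-low libraries alone (-0.17, edgeR adjusted p = 0.294). Vdr, a nuclear receptor whose partner Rxra binds Irx4, fell from 2.20 ± 0.471 to 0.504 ± 0.177 CPM (log2 fold change -2.13 ± 0.27, edgeR adjusted p = 0.0003). Tbx5, a chamber factor, was at 24.6 ± 1.11 CPM in control and 16.5 ± 2.47 CPM in cKO (-0.57 ± 0.10, edgeR adjusted p = 0.0023). Gata6, a cardiac zinc finger factor, was at 131.7 ± 3.56 and 93.4 ± 7.42 CPM (-0.50 ± 0.06, edgeR adjusted p = 0.0002).

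Chamber genes, which Irx4 and Hey2 are known to regulate, moved in both directions. Of 4 tested ventricular genes 0 were called in edgeR and 2 passed the adjusted p, Myl2, the ventricular regulatory light chain (-0.43), and Pln, the inhibitor of the calcium pump (-0.45), both lower, beside 8.03% of all genes lower at that threshold, with 0 called by DESeq2. Of 13 tested atrial genes, 2 were called higher and 2 lower, beside 4.01% and 2.72% of all genes, and 8 passed the adjusted p, 4 higher and 4 lower, beside 8.25% and 8.03%. Nppa, the atrial natriuretic peptide gene, was at 113.9 ± 9.18 CPM in control and 1721 ± 724.0 CPM in cKO (log2 fold change 3.92 ± 0.32), and Myl7, the atrial regulatory light chain, rose by 1.20 ± 0.22. Kcnj3, an atrial potassium channel subunit, fell by 4.10 on the log2 scale, and Stard10 fell by 1.44. Some genes stand in several lists, such as Nppa in the atrial and trabecular lists and Tbx5 in the partner and atrial lists. In the trabecular list 2 of 6 tested genes were called, both higher, beside 4.01% of all genes called higher. They were Nppb (1.31 ± 0.10) and Nppa, which is already counted among the atrial genes. Of these 6 genes, 3 passed the adjusted p, the third being Cited1, a transcriptional coactivator, which was lower (-0.50 ± 0.15, edgeR adjusted p = 0.0344) and was lost in 6 of 9 fits that left out a library (control 1, 2 or 3 or cKO 1, 3 or 4, adjusted p up to 0.0987). The median log2 fold change of the 6 was -0.16, and 5 had an unadjusted p under 0.05.

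Genes of the conduction system and of the transmural gradient, among them the channel genes that Irx3 and Irx5 are known to control, held several called genes. This list was chosen with earlier results of these data known, so its counts are a description. Of 17 tested, 6 were called, 1 higher and 5 lower, beside 4.01% and 2.72% of all genes, and 11 passed the adjusted p, 3 higher and 8 lower, beside 8.25% and 8.03%. Kcnd2, the channel gene repressed by Irx5, was at 15.2, 18.7, 13.4, 12.7 and 13.6 CPM in controls and at 9.92, 5.81, 8.69 and 5.28 CPM in cKO. The groups did not overlap, with a log2 fold change of -0.99 ± 0.19 (edgeR adjusted p = 0.0043), and cKO 2 and cKO 4, the libraries highest in Irx5, were the lowest in Kcnd2. With 4 cKO libraries that order is a description. Changes of other genes also leaned on cKO 2 and cKO 4. The log2 fold change of Plvap was 0.82 without cKO 2 and 0.91 without cKO 4, beside 1.16 without cKO 1 and 1.11 without cKO 3. A link between Irx5 and Kcnd2 was not tested.

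Kcnip2, the accessory subunit of the same outward current, moved the other way, from 146.9 ± 34.9 CPM in control to 507.1 ± 102.0 CPM in cKO (log2 fold change 1.79 ± 0.19, edgeR adjusted p = 0.0002). Kcnd3, the other pore subunit gene of that current, was at 3.20 ± 0.806 and 1.45 ± 0.743 CPM (-1.14 ± 0.31, edgeR adjusted p = 0.0251), with overlapping groups. The Kcnd3 call was lost in 5 of 9 fits that left out a library (control 4, control 5, cKO 2, cKO 3 or cKO 4, adjusted p from 0.0553 to 0.0738), with the replicate block (edgeR adjusted p = 0.0861) and in Rps3a3-low libraries alone, where the log2 fold change was -0.75 (edgeR adjusted p = 0.308). The others called lower were Hcn4, the pacemaker channel gene (-3.11 ± 0.32), Cntn2, a conduction-system marker (-1.83 ± 0.33), and Scn10a, a sodium channel gene (-1.37 ± 0.21). Gja5, the connexin of the fast conduction system that Irx3 is known to induce, was at 20.4 ± 1.07 and 20.1 ± 2.36 CPM (-0.02 ± 0.09, edgeR adjusted p = 0.898).

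**Figure D5:**
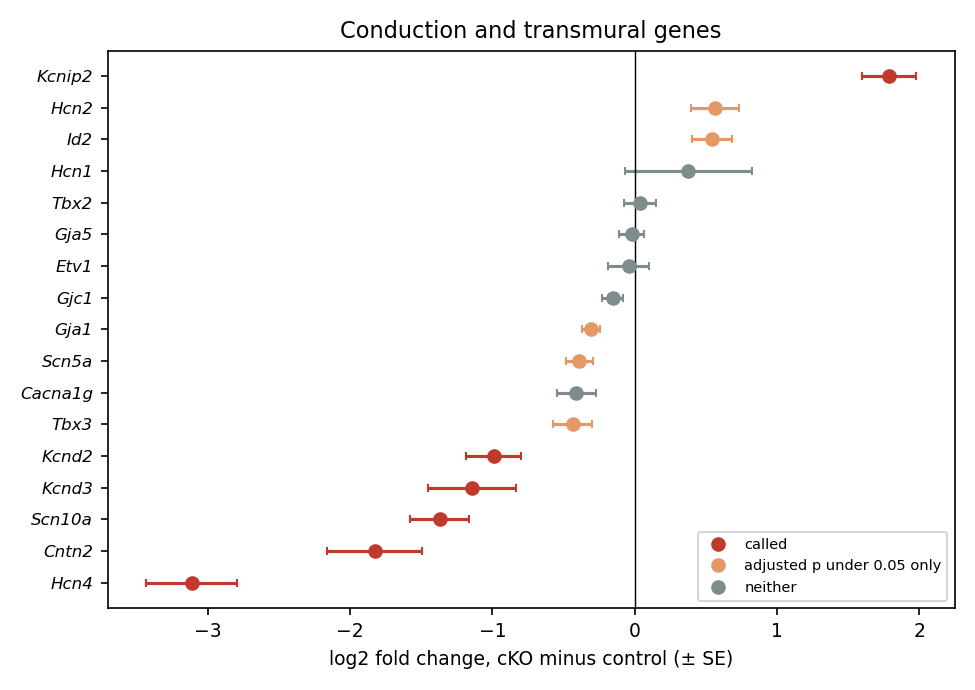
Log2 fold change (cKO minus control, ± SE) of 17 conduction and transmural genes, with called genes in red, genes past the adjusted p alone in orange and the rest in gray. Kcnip2 stands alone on the right at 1.79, and Kcnd2, Kcnd3, Scn10a, Cntn2 and Hcn4 on the left reach from -0.99 to -3.11.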

How the data were processed

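Ventricle RNA was sequenced as 9 stranded poly(A) libraries. The authors deposited raw counts per gene in 1 table, made from single-end reads mapped to mm10. The submitters' processing notes name STAR 2.4.2a and HTSeq 0.6.1, while the annotation and strand setting of counting are not given in the sources used here. The table held 0 other sample columns, and 36345 of 38293 identifiers (99.82% of counts) were found in GENCODE M21. The study's texts differ on the number of controls, and all 5 labelled controls were used. Genes were compared by edgeR 4.0.16 under R 4.3.3 with quasi-likelihood fits (TMM scaling, filterByExpr with a minimum count of 10, robust fit, genotype only), after tests on simulated data. P-values were Benjamini-Hochberg adjusted over 15318 genes. Calls needed adjusted p below 0.05 together with a fold above 1.5, the thresholds of the study. SE were derived from each F statistic. The labels do not say that libraries are separate animals beyond their replicate numbers. A figure legend of the study counts 5 control and 4 cKO hearts. The p-values set each group difference against the spread between these libraries. Ratios used log2(CPM + 0.5).

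Named were all 9 members, Arid1a, called genes of each list, called genes within 500 kb and the 3 genes most like a called member. Genes below the fold threshold were named after their values were seen. Members and lists were chosen with earlier results of these data known, so counts within the lists describe these genes and do not test for enrichment. Alternatives were DESeq2 1.42.0, RLE and upper-quartile scaling, no filter, a mean of at least 1 CPM, the replicate block, the library set or Xist class as a term, the Rps3a3-low libraries alone, other pseudocounts and each library left out.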

Additional observations from a re-analysis of the deposited data

Results flagged for a closer look

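In 110 groups of libraries (a gene or ratio in 1 genotype), 7 had a library whose gap to the nearest other exceeded Dixon's 95% critical value, beside 5.5 that chance would give at 1 in 20. Irx1 was 3.74 CPM in cKO 2 and from 1.91 to 2.02 CPM in the other cKO libraries. Irx2 was 7.43 CPM in cKO 1 and from 5.57 to 5.89 CPM in the others. Heyl was 82.7 CPM in control 5 and from 79.98 to 80.6 CPM in the other controls, still below every cKO library. The log2 ratio of Irx3 to Irx5 was 0.24 in cKO 4 and from 0.64 to 0.70 in the other cKO libraries. Kcnj3 was 3.76 CPM in cKO 1, the others being from 0.822 to 1.13 CPM. Kcnip2 was 354.9 CPM in cKO 4, the others being from 549.7 to 573.2 CPM. Cited1 was 13.04 CPM in cKO 2, the others being from 8.99 to 9.51 CPM.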

How the results depend on the processing

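Over 18 alternatives the log2 fold change of Irx5 lay between 0.60 and 0.85 and was called in 17, and that of Heyl lay between 0.23 and 0.28 and passed the adjusted p in 17. The exception was the Rps3a3-low set alone, with 5 libraries, where 0 members and 620 genes were called, the partner list had 2 calls and the trabecular list 1. Arid1a, Hes1, Tbx20, Pln, Nppa, Sox17, Tpd52l1 and Cited1 also lost the adjusted p in this set, in the same direction. There the Irx2 log2 fold change turned to 0.014. That of Hey1 turned to -0.00049 with DESeq2, -0.0023 without a filter, -0.0020 with the library set as a term and -0.0069 with the replicate block. With the library set as a term the partner list had 3 calls. Without a filter the Notch processing list had 0. With a pseudocount of 2 CPM the ratio of Irx1 to Irx4 differed by -0.25 and passed after adjustment (exact p, adjusted 0.0278).

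With the replicate block the ratios of Irx3 to Irx5, Hey1 to Heyl and Hey2 to Heyl differed by -0.60, -0.27 and -0.36, and 4 pairs cannot give an exact p below 0.125. With labels permuted within the library sets they differed by -0.58, -0.26 and -0.39 and did not pass. The replicate numbers did not pair the libraries (correlations of deviations -0.05, 0.07, -0.01 and 0.30). In the block fit 879 genes were called, Irx5 was at 0.73 (edgeR adjusted p = 0.022), and Heyl was at 0.27 (edgeR adjusted p = 0.036).

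With each library left out in turn, the ratio differences ran from -0.12 to 0.24 for Irx1 to Irx2, from -0.43 to -0.24 for Irx1 to Irx4, from -0.64 to -0.47 for Irx3 to Irx5, from -0.30 to -0.20 for Hey1 to Heyl and from -0.48 to -0.27 for Hey2 to Heyl. For Irx2 to Irx4 they ran from -0.58 to -0.31 and for Hey1 to Hey2 from 0.024 to 0.20. The log2 fold change of Irx3 ran from -0.040 to 0.16 and that of Hey1 from -0.022 to 0.029. Calls ran from 0 to 1 in the Notch processing list and from 1 to 2 in the partner list. With fewer libraries the exact test has fewer splits, and the cause of the other changes was not tested. Irx1, Irx5 and Irx2 rest on 65 to 453 counts per library, which limits how small a change could be seen.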
